A study of Mus musculus with 3 samples.

Results

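Cx3cr1 is the gene into which the Cre recombinase of this study was placed. Its row was followed through the count files of 3 single-cell libraries of mouse brain microglia, 1 library per genotype, as 1 of 15338 genes listed in any file and 1 of 13681 listed in every file. The Control library was labelled wild type and male. The hCD33M library was labelled male and the hCD33m library female, and the labels were followed here. The barcode numbers of Control and hCD33M equal those that the study gives for its independent repeat of the single-cell experiment. The study's text names male mice where it describes the first experiment, and states no sex for the repeat. The hCD33M and hCD33m mice carried a conditional transgene at the Rosa26 locus for the long (hCD33M) or the short (hCD33m) isoform of human CD33. The long isoform is a sialic acid-binding receptor that repressed phagocytosis in the study. The short isoform lacks the domain that binds sialic acid, and in the study it enhanced phagocytosis. The transgenes were released by Cre from the Cx3cr1 locus. Per the study's methods the mice were on the C57BL/6J background and the hCD33m line came from 1 embryonic stem cell clone. The study describes pooling the cells of mice of a genotype for its first experiment, and does not say so for the repeat. All mice were 8 weeks old. In the mice that the study compared directly for phagocytosis the Cre allele was present in a single copy beside an intact Cx3cr1 allele. The wild-type mice there carried it too, as did those of the study's in situ hybridization. A further phagocytosis assay used other wild-type mice as its reference, for which no Cre allele is named. Whether the wild-type mice of the Control library carried Cre, and whether transcripts of the knock-in allele still end in a tag counted as Cx3cr1, are questions that the sources used here do not answer. Cells were sorted as CD11b+ CD45low Cx3cr1+, so the protein of the gene under study was itself part of the gate, and how that gate set the low end of the values was not tested. By the labels, sex and the hCD33m genotype cannot be told apart.

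Cx3cr1 encodes the Gi-coupled receptor for fractalkine (Cx3cl1), a chemokine that neurons hold at their membrane and that proteases can shed. In brain the receptor is carried mainly by microglia, and at lower levels by border macrophages and monocytes, which is why its locus is used to drive Cre in these cells. Microglia with a single working copy are widely used as reporter and driver lines, and a loss of 1 of 2 alleles that acts alike in every cell would leave 50% of the transcripts, a log2 ratio of -1. The values below were set beside that ratio.

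The gene lies on the minus strand of mouse chromosome 9. In GENCODE vM21 on mm10 its main transcript runs over chr9:120048683-120068296, and its last exon, chr9:120048683-120052343 with 3661 bases, holds the whole coding sequence of 354 residues, beginning 9 bases into the exon. A transcript with a further upstream exon shares that last exon and its end, so a 3′ tag does not tell them apart. The annotation has another transcript with the same coding sequence that ends in a separate exon of 12 bases, chr9:119901616-119901627, and which of the ends gave the counted tags cannot be read from the files. The first 60 coding bases are shown because they are where the receptor's open reading frame begins in this exon. They lie at chr9:120052275-120052334 and are written on the minus strand from 5′ to 3′, with the start codon in capitals.
Cx3cr1 coding start: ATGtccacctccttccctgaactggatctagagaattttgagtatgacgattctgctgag

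The files held 3482 barcodes for Control, 5100 for hCD33M and 5707 for hCD33m, with 21529542, 28387611 and 32572995 unique molecular identifiers (UMIs, each standing for 1 captured transcript end). After filtering, 3412, 5046 and 5612 cells remained with median UMIs between 5078.5 and 5436.5, and pairs of libraries shared between 5 and 10 barcodes among these cells. Clustering without Cx3cr1 gave 7 clusters named microglia-like, 1 led by genes of border-associated macrophages (BAM-like, with Pf4, Mrc1 and Ms4a7, and with the antigen presentation genes H2-Eb1 and H2-Aa at its head), 1 monocyte-like with Plac8 and S100a4, and 2 clusters left unnamed for their low UMI number, although microglial markers were at their level there too. No doublets were removed.

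In microglia-like cells Cx3cr1 was among the most abundant transcripts of Control and stood clearly lower in both transgenic libraries. The summed cells held 109146 Cx3cr1 UMIs from 3016 Control cells, 88576 from 4543 hCD33M cells and 93047 from 4904 hCD33m cells. In CPM, the UMIs of a gene per 1000000 UMIs of the summed cells, the level was 5676 (95% counting interval 5642 to 5710) in Control, 3349 (3327 to 3372) in hCD33M and 3153 (3133 to 3173) in hCD33m. The Control value was the highest and the intervals of the 3 libraries did not overlap. By UMIs, which are single 3′ tags and were not divided by transcript length, Cx3cr1 was the gene of rank 11 in Control, 16 in hCD33M and 18 in hCD33m.

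The log2 ratio to Control was -0.76 (-0.77 to -0.75) for hCD33M and -0.85 (-0.86 to -0.84) for hCD33m, so that 59.0% and 55.6% of the Control level remained. Both ratios were nearer to 0 than a halving, by 0.24 and 0.15 on the log2 scale. The intervals cover counting error only, so that genotypes could not be tested against each other and the spread between mice is unknown. Over all genes with at least 20 CPM the middle 95% of log2 ratios ran from -0.22 to 0.27 for hCD33M and from -0.33 to 0.34 for hCD33m, with medians of 0.01 and -0.00. The ratios of Cx3cr1 lay far outside these ranges. Its distances above a halving lay inside them, although for hCD33M the 0.24 was larger in size than the lower bound of -0.22. The spread over genes does not measure the error of a single gene. Among the genes with at least 1000 CPM the range was -0.23 to 0.23 for hCD33M, a little narrower than the distance of 0.24.

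The 2 transgenic libraries differed much less from each other. The log2 ratio of hCD33m over hCD33M was -0.09 (-0.10 to -0.07), and Cx3cr1 held rank 1834 from the lowest of 6754 genes, well within the bulk. That difference was larger than counting error and was of the size found between these libraries for many genes.

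Few genes fell as far as Cx3cr1. At least 20 CPM and a ratio at least 1.5 times below Control were found for 12 of 6753 genes in hCD33M (0.178%) and for 35 of 6766 in hCD33m (0.517%), and at least 1.5 times above Control for 22 (0.326%) and 41 (0.606%). Cx3cr1 was the 9th lowest ratio for hCD33M and the 11th lowest for hCD33m. Among genes with at least 1000 CPM it was the lowest of 115 and of 120, and the single gene past 1.5 times lower. The next lowest of these in hCD33M was the ribosomal protein gene Rpl10, at 1341, 1080 and 946 CPM in Control, hCD33M and hCD33m, with log2 ratios of -0.31 and -0.50.

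**Figure D1:**
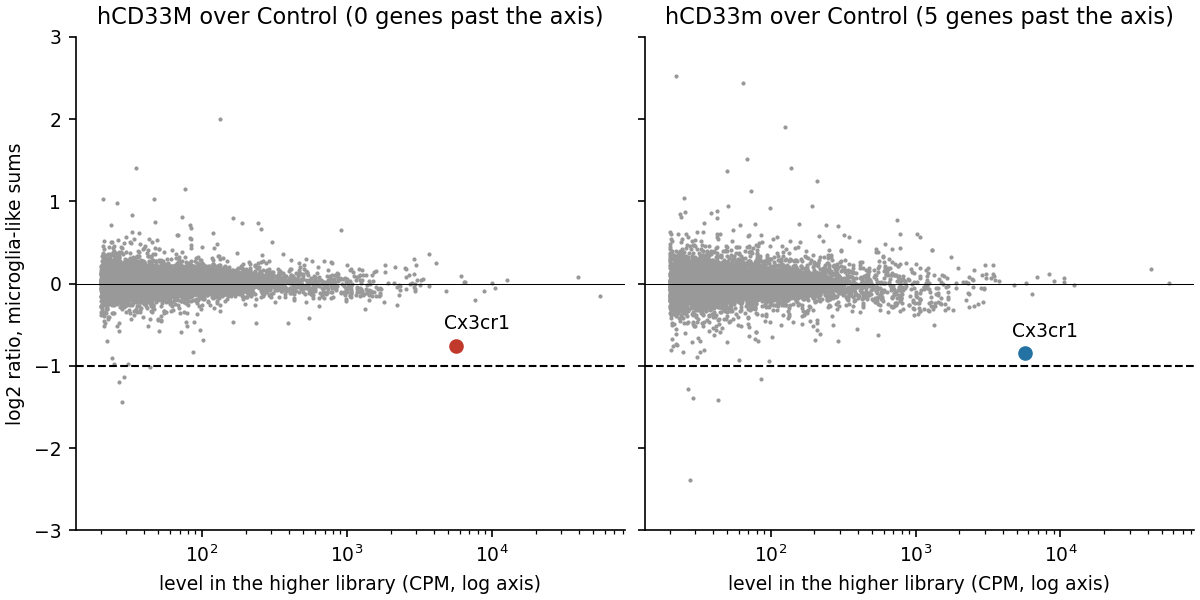
Log2 ratio to Control (vertical axis) against the level in the higher library in CPM (horizontal log axis) for genes with at least 20 CPM in the summed microglia-like cells, 1 point per gene, left for hCD33M and right for hCD33m. Cx3cr1, the large point at -0.76 and -0.85, stands alone among the abundant genes and lies above the dashed line at -1.

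The lower level was seen along the whole per-cell distribution. When every microglia-like cell was thinned to 2000 UMIs, which left 2979, 4499 and 4839 cells and removed 37, 44 and 65 shallower ones, the mean was 11.4 Cx3cr1 UMIs per cell in Control (SD over cells 4.57), 6.74 in hCD33M (SD 3.25) and 6.44 in hCD33m (SD 3.16). The Control cells had a median of 11 UMIs, with 5th and 95th percentiles of 5 and 19. The hCD33M cells had a median of 6 with percentiles of 2 and 13, and the hCD33m cells a median of 6 with percentiles of 2 and 12. The distributions overlapped: 53.9% of Control cells, 12.8% of hCD33M cells and 10.3% of hCD33m cells reached the Control median.

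Cells with no Cx3cr1 UMI were rare in all 3 libraries. At 2000 UMIs they were 2 Control cells, 27 hCD33M cells and 27 hCD33m cells, which is 0.067%, 0.60% and 0.558%. Without thinning there were 2 such cells in Control, 0 of 4543 in hCD33M and 4 in hCD33m. For hCD33M, 3 divided by the number of cells gives an approximate upper limit of 0.066%, which is not an exact interval. No cell class of the files lacked the gene and could serve as a background for free RNA. In the monocyte-like cells, where the gene was lowest, 22.2%, 34.8% and 42.9% of the cells were at 0 at the same depth.

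A uniform halving, taken here as each UMI being kept with probability 0.5, predicts the complete distribution and not just its mean. The loss of an allele gives this shape only if both alleles vary together within a cell, which was not tested. Keeping each UMI of the thinned Control cells with probability 0.5 gave a mean of 5.72 UMIs, a median of 5, 0.842% of cells at 0 and 11.2% at 2 UMIs or fewer. Both transgenic libraries lay to the right of this curve. At 2 UMIs or fewer were 7.0% of hCD33M and 9.13% of hCD33m cells, and 12.8% and 10.3% reached 11 UMIs where the halved Control had 5.95%. The largest gap in cumulative share was at 6 UMIs or fewer, where 51.5% of hCD33M and 54.6% of hCD33m cells stood against 65.1% of the halved Control, a difference of -13.5 and -10.5 percentage points. The share of cells at 0 was not above that of the halved Control in either library.

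When each Control UMI was instead kept with the ratio of the means, 0.589 for hCD33M and 0.563 for hCD33m, the curves nearly coincided. The largest cumulative gap fell to 1.49 points for hCD33M, at 4 UMIs or fewer, and to 1.5 points for hCD33m, at 2 UMIs or fewer, with more transgenic cells on the low side. The variance in excess of counting noise, divided by the squared mean, does not change when each UMI is kept with the same probability. For Control, hCD33M and hCD33m it came to 0.0724, 0.0845 and 0.0851, with log2 ratios to Control of 0.22 and 0.23. The same quantity for 20 homeostatic microglia genes had a median log2 ratio of 0.19 (range -0.29 to 0.69) for hCD33M and -0.00 (range -0.51 to 0.90) for hCD33m, so that the value of Cx3cr1 lay within their range.

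**Figure D2:**
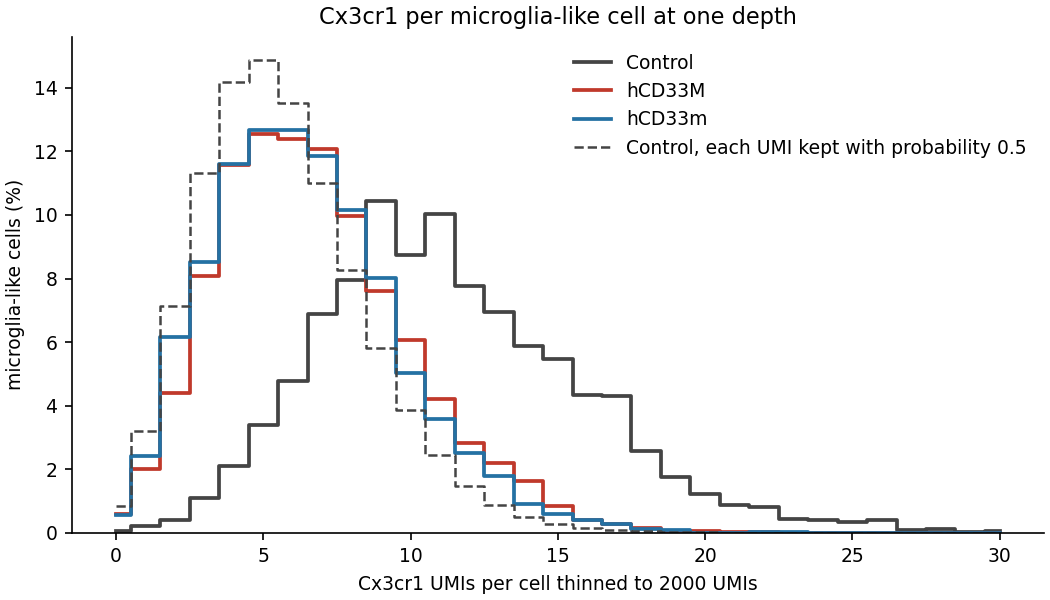
Share of microglia-like cells in percent (vertical axis) by number of Cx3cr1 UMIs per cell thinned to 2000 UMIs (horizontal axis) for the 3 libraries, with the Control distribution after each UMI was kept with probability 0.5 as a dashed line. The hCD33M and hCD33m curves, with means of 6.74 and 6.44, lie close together between the halved Control at 5.72 and Control at 11.4.

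Across the 7 microglia-like clusters the level of Cx3cr1 followed nearly the same order in each library. It was highest in the clusters led by Tjp1 and Zeb1 (cluster 0) and by Hist1h2ac and Gadd45g (cluster 4). Cluster 0 had 6123, 3613 and 3433 CPM and cluster 4 had 6038, 3733 and 3432 CPM in Control, hCD33M and hCD33m. Their intervals overlapped in Control and in hCD33m, while in hCD33M cluster 4 was the higher.

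The middle of the order was held by the cluster led by Upk1b and Crybb1, with 5430, 3253 and 2966 CPM, by the early response cluster with Tsc22d3, Fos and Fosb, with 5392, 3420 and 3002 CPM, and by the interferon cluster with Ifit3 and Isg15, with 4950, 3268 and 2943 CPM. Fos and Fosb are immediate early transcription factors, and Ifit3 and Isg15 are induced by type I interferon. The first and second of these did not differ beyond counting error in Control or in hCD33m. The early response cluster was made up mostly of hCD33m cells (1472, against 95 of Control and 142 of hCD33M) and had the sex-linked gene Xist among its leading genes, so it may be that library as much as a state.

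The lowest levels were in the cluster led by Klf2, Emp3 and Lsp1 (cluster 5), with 4651, 2872 and 2682 CPM, and in the chemokine cluster headed by Ccl4 and Ccl3, which encode secreted chemokines, and by Cst7, a cystatin known from disease-associated microglia (cluster 6), with 4356, 2405 and 2420 CPM. In each library the intervals of cluster 6 lay below those of cluster 5, and in Control cluster 5 overlapped the interferon cluster. At 2000 UMIs the median of cluster 6 was 8 UMIs in Control and 4 in both transgenic libraries.

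**Figure D3:**
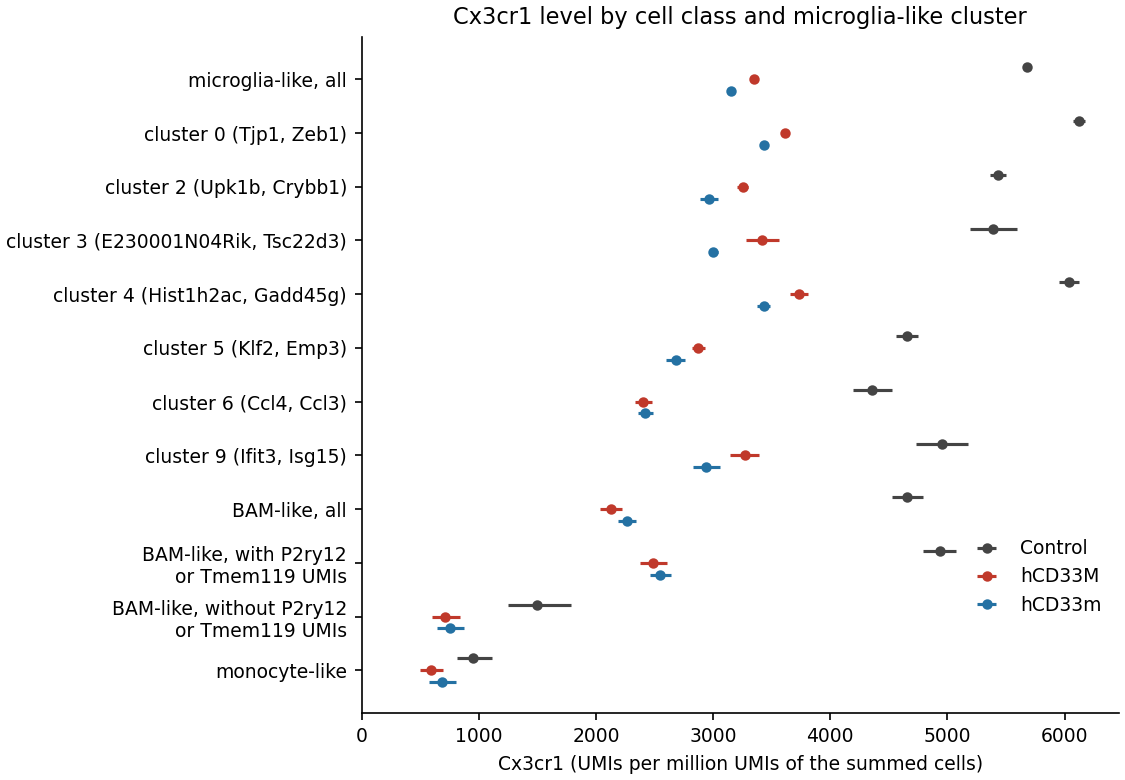
Cx3cr1 level in CPM (horizontal axis) by cell class and microglia-like cluster (vertical axis) in the 3 libraries, with bars for 95% counting intervals. Control lies to the right in every row, from 953 CPM in monocyte-like cells to 6123 CPM in cluster 0.

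The reduction was found in all 7 clusters, with log2 ratios to Control between -0.86 and -0.60 for hCD33M and between -0.87 and -0.75 for hCD33m. In both comparisons the counting intervals of 7 of 7 clusters lay above -1. The smallest reduction was in the interferon cluster, at -0.60 (-0.68 to -0.52) for hCD33M and -0.75 (-0.83 to -0.67) for hCD33m. The chemokine cluster had -0.86 (-0.93 to -0.79) and -0.85 (-0.92 to -0.78). Its mixture may differ between libraries: at a finer resolution a cluster led by Ccl4 and Ccl3 held 98, 99 and 132 cells of Control, hCD33M and hCD33m, and one led by Cst7 held 5, 177 and 172. In the Ccl4-led cluster the ratios were -0.76 (-0.85 to -0.68) and -0.90 (-0.98 to -0.82). With each cell given equal weight at 2000 UMIs, the chemokine cluster moved to -0.91 and -0.99, so its distance from a halving depends on whether deep cells count for more.

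Sorting the cells by marker UMIs in place of clusters gave similar ratios for most states. Cells with a UMI of Fos or Fosb had 5554, 3306 and 3138 CPM in Control, hCD33M and hCD33m, with ratios of -0.75 and -0.82. Cells with a UMI of Ifit3, Isg15 or Ifit2 had ratios of -0.69 and -0.76, and cells with none of the state markers -0.76 and -0.85.

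Cells with at least 2 UMIs of Ccl3 and Ccl4 together had 4907, 3111 and 2605 CPM, with ratios of -0.66 (-0.75 to -0.57) and -0.91 (-1.005 to -0.82), the second with -1 just inside its interval.

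Cells with a Cst7 UMI had the lowest ratios of the marker-defined states. They had 5454 CPM in 71 Control cells, 2623 in 185 hCD33M cells and 2629 in 153 hCD33m cells, with log2 ratios of -1.06 (-1.13 to -0.98) and -1.05 (-1.13 to -0.98), whose intervals held -1. In Control these cells were close to the level of cells without any state marker, 5746 CPM, whereas in the transgenic libraries they were well below the corresponding 3402 and 3194 CPM. The Cst7-led cluster of the finer resolution held 5 Control cells, so that most Control cells with a Cst7 UMI lay outside it. In that cluster Cx3cr1 was at 4258 (3696 to 4881), 2249 (2161 to 2340) and 2408 (2328 to 2491) CPM, and the ratios of -0.92 (-1.13 to -0.71) and -0.82 (-1.03 to -0.61) rested on the 5 Control cells.

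In BAM-like cells Cx3cr1 was lower in the transgenic libraries as well, with 4659, 2127 and 2263 CPM in Control, hCD33M and hCD33m from 84, 102 and 127 cells. The log2 ratios were -1.13 (-1.21 to -1.06) and -1.04 (-1.10 to -0.98), the first beyond a halving and the second with -1 in its interval. At 2000 UMIs, with each cell weighted equally, the means were 6.83, 3.54 and 3.43 UMIs and 51.9% and 50.3% of Control remained. The excess variance over the squared mean was 0.307, 0.562 and 0.458, several times that of microglia-like cells, and 5.26%, 17.8% and 20% of the cells were at 0.

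Most of this BAM-like signal came together with microglial transcripts. P2ry12, the purinergic receptor that marks homeostatic microglia, stood in the summed BAM-like cells at 66.7%, 50.2% and 55.7% of its microglia-like level, and Sall1, a transcription factor of microglia, at 63.3%, 50.2% and 62.0%. Of the BAM-like cells deep enough to be thinned, 62 in Control, 70 in hCD33M and 87 in hCD33m had a UMI of P2ry12 or Tmem119, and their median depth was 11978.5, 8576.5 and 11006 UMIs. These cells had 4932, 2488 and 2549 CPM of Cx3cr1. Their log2 ratios to Control were -0.99 (-1.06 to -0.91) for hCD33M and -0.95 (-1.02 to -0.89) for hCD33m. Both intervals held -1, unlike that of hCD33M over all BAM-like cells.

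The other BAM-like cells, 14 in Control, 31 in hCD33M and 33 in hCD33m with median depths of 5972, 5430 and 6295 UMIs, had 1499 (1248 to 1786), 710 (597 to 839) and 753 (645 to 873) CPM. That is 26.4%, 21.2% and 23.9% of the microglia-like level, at more than 2000 CPM each of Mrc1, the mannose receptor, and Pf4, a platelet-type chemokine of border macrophages. The microglial genes Siglech and Olfml3, which were not used for the division, remained in them at 8.05%, 20.2% and 12.6%, and at 3.49%, 10.6% and 17.1%. The ratios of these cells were -1.08 (-1.44 to -0.72) and -0.99 (-1.33 to -0.65), too wide to place them on either side of a halving. With equal weight per cell at 2000 UMIs they were -0.49 and -1.12, so that no order between the libraries can be read. The division was made after the values had been seen, and the part of mixed barcodes or free RNA in the BAM-like level was not tested.

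Monocyte-like cells had the lowest Cx3cr1, 953 (814 to 1109) CPM from 18 Control cells, 590 (497 to 694) from 23 hCD33M cells and 684 (574 to 809) from 28 hCD33m cells. This was 16.8%, 17.6% and 21.7% of the microglia-like level of the same library, above the 3.34%, 8.28% and 11.8% for P2ry12. The ratios were -0.69 (-1.02 to -0.36) and -0.48 (-0.82 to -0.14), and -0.92 and -0.89 with equal weight per cell at 2000 UMIs.

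The monocyte-like cells may not be the same mixture in each library. Ly6c2 marks classical monocytes, and a Ly6c2 UMI was found in 12 of 18 Control, 18 of 23 hCD33M and 6 of 28 hCD33m cells. This split was made without thinning, at median depths of 10025.5, 10635 and 5816 UMIs, so it also depends on depth. The summed Ly6c2 level was 634, 1081 and 624 CPM, much the same in Control and hCD33m. Cells with it had 786, 604 and 366 CPM of Cx3cr1, and cells without it had 1433, 509 and 839 CPM. In both Control and hCD33m the cells without Ly6c2 were the higher, and in hCD33M the intervals, 503 to 720 and 306 to 795, overlapped. A ratio over the undivided class may therefore compare different mixtures.

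**Figure D4:**
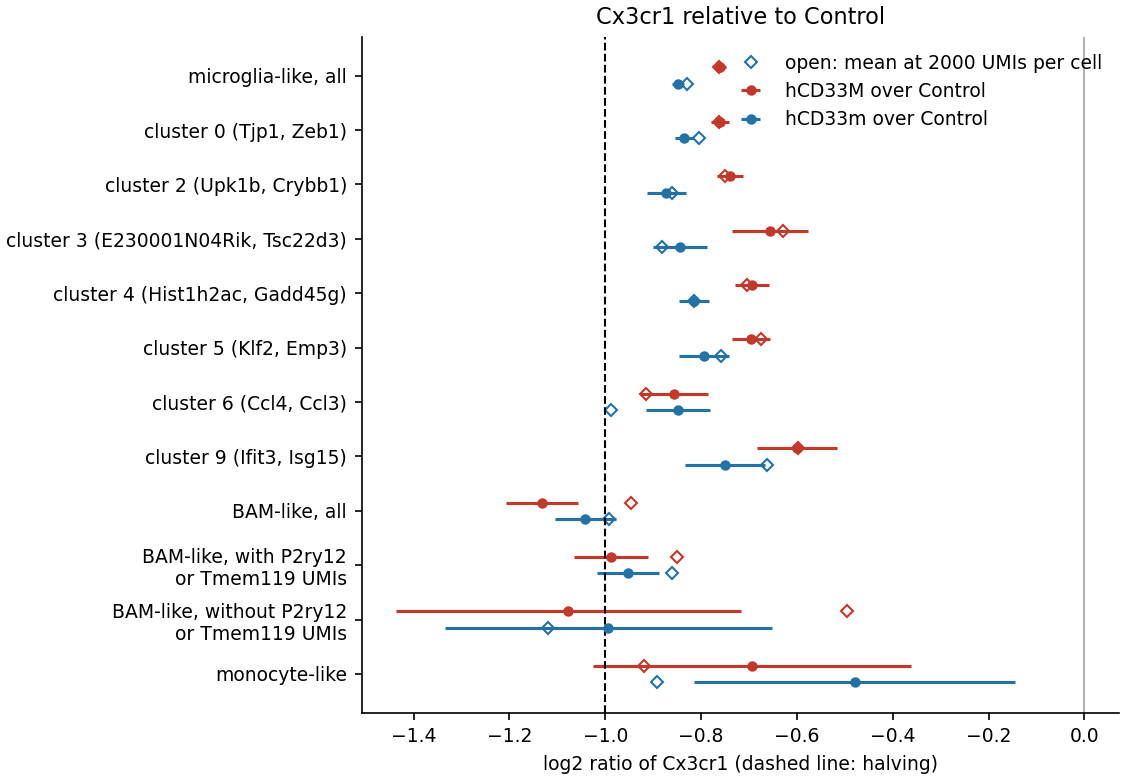
Log2 ratio of Cx3cr1 to Control (horizontal axis) by cell class and microglia-like cluster (vertical axis), as filled points with 95% counting intervals for summed UMIs and as open diamonds for means at 2000 UMIs with cells weighted equally. All microglia-like intervals lie between the dashed line at -1 and 0, while those of the BAM-like rows reach or pass -1 and those of the monocyte-like row are wide.

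Of 27 genes of the CX3CR1 pathway, 23 reached 20 CPM in the microglia-like cells, and their median log2 ratio to Control was 0.04 (range -0.14 to 0.59) for hCD33M and -0.01 (range -0.18 to 0.37) for hCD33m. None of the 23 was at least 1.5 times lower in either library, where the share over all genes was 0.178% for hCD33M and 0.517% for hCD33m, shares at which a list of this size would hold hardly any. In hCD33M 1 was at least 1.5 times higher, against 0.326% of all genes, and in hCD33m none, against 0.606%. The gene was Gng10, a G protein gamma subunit, at 45.6, 68.6 and 53.2 CPM. The protease Ctss, which can cleave the ligand, was at 5760, 6123 and 5786 CPM. The ligand Cx3cl1 itself, named here for its role after its values were seen, was at 0.26, 0.265 and 0.136 CPM, too little to compare.

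Downstream of the receptor, Gnai2, an inhibitory G protein alpha subunit likewise named after its values were seen, was at 831, 862 and 848 CPM. Rgs10, which speeds the shut-off of such G proteins, was at 1685, 1532 and 1485 CPM with ratios of -0.14 and -0.18, the lowest of the 23 members with at least 20 CPM in both comparisons. The kinase gene Src had ratios of 0.38 and 0.37.

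Of 21 other chemokine receptors, 16 had a row in the files. Of these, 2 reached 20 CPM in the comparison of hCD33M with Control and 3 in that of hCD33m, too few for a count of lower genes to say anything about the list. Ccr1, a receptor for inflammatory chemokines, was at 13.7, 17.1 and 24.1 CPM, a ratio of 0.81 for hCD33m. The 20 homeostatic microglia genes had median ratios of -0.00 (range -0.26 to 0.14) and 0.03 (range -0.20 to 0.32), and none was past 1.5 times. Over all genes the shares past 1.5 times lower and higher were 0.178% and 0.326% for hCD33M. For hCD33m they were 0.517% and 0.606%, so a list of this size would hold hardly any. The lowest of the 20 was Fcrls in hCD33M, at 2205, 1843 and 2321 CPM in Control, hCD33M and hCD33m. The highest was Tmem119 in hCD33m, at 1398, 1540 and 1751 CPM.

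In hCD33M no flanking gene came near the ratio of Cx3cr1. The 5 nearest genes with at least 5 CPM on each side lay within 614 kb, and in hCD33M their log2 ratios ran from -0.13 for Csrnp1 to 0.20 for Acvr2b. In hCD33m the antisense RNA Gm33858 stood apart. It starts 0.7 kb beyond the start of the main transcript on the plus strand, at chr9:120068996-120070622, where it overlaps the upstream exon of the longer transcript. Its level was 32.7, 36.5 and 20.1 CPM in Control, hCD33M and hCD33m, with ratios of 0.16 (0.02 to 0.31) and -0.70 (-0.86 to -0.53). That exon has 78 bases, at chr9:120069802-120069879, while the longer transcript ends in the shared last exon, chr9:120048683-120052343. Reads of the overlap could be taken for Cx3cr1 only if the counting ignored strand, which the sources used here do not state. Whether any such reads were counted was not tested. The other neighbours in hCD33m ran from -0.28 for Rpsa, a ribosomal protein gene, to 0.54 for Exog, a mitochondrial nuclease. The transgene locus itself is marked by Gt(ROSA)26Sor, at 28.1, 25.4 and 32.6 CPM, with ratios of -0.14 (-0.31 to 0.02) and 0.22 (0.06 to 0.37).

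**Figure D5:**
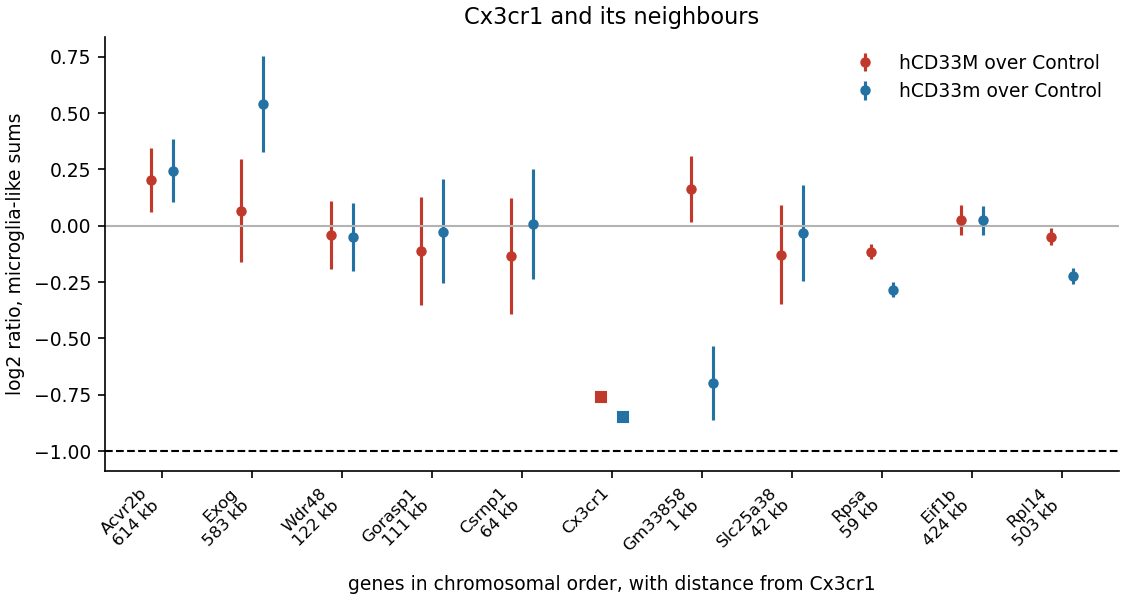
Log2 ratio to Control in summed microglia-like cells (vertical axis) for Cx3cr1, as squares, and for the 5 nearest genes on each side with at least 5 CPM, as circles with 95% counting intervals, in chromosomal order and not to scale along the horizontal axis. Cx3cr1 lies at -0.76 and -0.85, and the sole neighbour near it is Gm33858 in hCD33m, at -0.70.

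Over the 21 library-by-cluster groups of microglia-like cells the gene whose level was most like that of Cx3cr1 was Arhgap45, a GTPase-activating protein gene, with Pearson's r of 0.89 between log2(CPM + 1) values among 6573 genes. Its microglia-like level was 394, 281 and 268 CPM in Control, hCD33M and hCD33m. Chfr (r = 0.88), 0610010K14Rik (0.84), 4933406I18Rik (0.83) and Il21r (0.83) came next. The most opposed were Cd34 (r = -0.88), at 161, 256 and 231 CPM, AY036118 (-0.82) and Rps27rt (-0.81). The groups share 3 libraries, and a gene that merely differs between Control and the others has a high r here.

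With the BAM-like and monocyte-like cells included, over 26 groups and 6590 genes and without the Control monocyte-like group, whose 18 cells were under the minimum of 20, the most alike were Ppp1r14b (r = 0.94), Whrn (0.93), Il21r (0.93), Cnbp (0.92) and Mlph (0.92), and the most opposed Rnf149 (-0.93), 2010107E04Rik (-0.93) and Rps27rt (-0.92). Il21r, an interleukin receptor gene, was named by both rankings, at 179, 164 and 144 CPM. These correlations are descriptions over groups that are not independent.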

How the data were processed

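Droplet 3′ libraries of sorted microglia were made by the authors in more than 1 experiment, and the set used here held 1 library per genotype. Per the study's methods, reads were aligned to mm10 with Cell Ranger v3.0.0 and the matrices were read into Seurat, with an annotation release that the sources used here do not name. The deposited values are raw counts (UMIs per gene and cell), in files that keep barcodes with over 200 genes. Rows for Cre or human CD33 were looked for by name and not found, and the transgenes are not analysed here. The gene, its classes and all lists were chosen with earlier results of these data known.

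Cells with over 200 and under 8000 genes, at least 200 UMIs and at most 10% mitochondrial UMIs were kept. On 2000 variable genes, without Cx3cr1, sex-linked and early response genes, 15 principal components and 20 neighbours gave Leiden clusters (Python 3.11.15 with scikit-learn 1.9.0, igraph 0.11.9, leidenalg 0.10.2 and scanpy 1.11.5; resolution 0.5). A cluster was named BAM-like or monocyte-like with at least 3 fixed markers among its 10 leading genes, and microglia-like with at least 3 of 8 fixed markers at 0.5 of the average or more; clusters with a median under 1 in 3 of their libraries' UMIs stayed unnamed. UMIs were summed per class and library and scaled to CPM. Ratios have exact binomial, levels exact Poisson and shares exact Clopper-Pearson 95% intervals (scipy 1.17.1), for counting error only. For per-cell values each cell was thinned to 2000 UMIs. The steps were tested on simulated data. Alternatives used the TMM factors of edgeR 4.0.16 and the size factors of DESeq2 1.42.0 (R 4.3.3). Named genes were Cx3cr1, the extreme or most abundant members of 3 lists (at most 4 each, plus Cx3cl1 and Gnai2, added after their values were seen), 5 neighbours on each side, Gt(ROSA)26Sor, and the 5 most and 3 least similar genes. Some genes that met this rule are left out of the text.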

Additional observations from a re-analysis of the deposited data

How the results depend on the processing

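The log2 ratio of Cx3cr1 to Control in microglia-like cells kept its direction under every alternative tried, and none reached -1: it ran from -0.78 to -0.73 for hCD33M and from -0.91 to -0.83 for hCD33m. For hCD33M over Control, values outside the counting interval were -0.78 with TMM factors, -0.78 with median-of-ratios factors, -0.73 when scaled to the other homeostatic genes, -0.78 without a cell filter, -0.75 with a stricter filter (1000 genes, 5% mitochondrial) and -0.73 with clusters weighted as in Control. For hCD33m over Control they were -0.91, scaled to homeostatic genes, -0.86 without a filter and -0.83 without the top 5% of cells by UMIs. For hCD33m over hCD33M they were -0.067 (TMM), -0.069 (median-of-ratios), -0.18 (homeostatic genes) and -0.10 (clusters weighted).

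Scaled to 2000 UMIs, the mean per cell at a depth of 4000 UMIs was 11.2, 6.50 and 6.14 in Control, hCD33M and hCD33m, 6.34 in hCD33m at 1000 UMIs, and 6.82 in hCD33M under the stricter filter. The share of cells at 0 was 0.996%, 5.11% and 6.67% at 1000 UMIs in Control, hCD33M and hCD33m. At 4000 UMIs it was 0.038%, 0.027% and 0.025%, with overlapping intervals, so Control was not the lowest there.

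In BAM-like cells the hCD33M ratio was -0.95 with cells weighted equally at 2000 UMIs, and in monocyte-like cells the hCD33m ratio was -0.89. Weighted likewise, the hCD33m ratios were -0.80 in cluster 0, -0.99 in cluster 6 and -0.66 in cluster 9. With states set by marker UMIs, hCD33M had -0.75 for Fos or Fosb, -0.66 for Ccl3 and Ccl4, -1.06 for Cst7 and -0.69 for the interferon genes, and hCD33m -1.05 for Cst7. At resolution 1.0 the Ccl4-led cluster had -0.76 in hCD33M. Equal weighting, the split of BAM-like cells, the resolution 1.0 states and the 1000 CPM minimum were chosen after seeing the data.

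Genes at least 1.5 times lower numbered 742, 44, 4 and 1 for hCD33M, and 1839, 127, 14 and 1 for hCD33m, with no minimum and with minimums of 5, 50 and 1000 CPM. The cause of these shifts was not tested. No paired analysis was possible because there is 1 library per genotype, and no replicate could be left out. Counting depth limits the BAM-like and monocyte-like ratios, which rest on fewer than 130 cells a library.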

Other observations

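The 2 unnamed clusters, which held 294 Control, 378 hCD33M and 553 hCD33m cells with median UMIs of 1501.5, 1181.5 and 1060, were left out of the microglia-like class but carried Cx3cr1 at 6221, 3605 and 3180 CPM. Their log2 ratios to Control were -0.79 (-0.86 to -0.71) and -0.97 (-1.04 to -0.90). Cycling cells, led by Top2a and Mki67 at the finer resolution, were 2 in Control, 10 in hCD33M and 11 in hCD33m, with 4347 (3401 to 5474), 2743 (2394 to 3129) and 2881 (2582 to 3206) CPM. When the microglia-like cells of each library were divided into 4 equal groups by UMIs per cell, the ratios of the 4 groups ran from -0.80 to -0.74 for hCD33M and from -0.87 to -0.83 for hCD33m.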
